A study of Homo sapiens with 31 samples.

Results

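In MUTZ3 cells, a human acute myelomonocytic leukemia line, 247 of 37227 CTBP2 sites carried no EVI1 peak and still carried a CTBP2 peak after the CTBP-binding peptide 4xPLDLS was induced. Overlapping CTBP2 peaks were merged into intervals, and an interval was taken as a site when both untreated replicates of the inducible line had a peak in it. It counted as kept when it overlapped a CTBP2 peak of at least 1 of the 2 lists made with doxycycline (dox) by at least 1 bp, and as lost otherwise. It counted as without EVI1 when it overlapped no peak of the 4 EVI1 lists of the inducible line, nor of the EVI1 list of unmodified MUTZ3 cells. The 247 sites were therefore chosen by measured values, the CTBP2 and EVI1 peak calls, and their CTBP2 peaks with dox and their lack of EVI1 peaks are descriptions. The remaining sites were 1527 lost without EVI1, 21707 kept with EVI1 and 13746 lost with EVI1.

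All 8 libraries of the inducible experiment came from MUTZ3 cells that carried pCW-4xPLDLS, a lentiviral construct under dox control, either Untreated or given Dox, at 72 hours, with 2 libraries per target and treatment. The inducible cells were compared as transduced bulk populations. The unmodified MUTZ3 cells were WT and Untreated, with 1 library for EVI1 and 1 for CTBP2, the latter labelled as single crosslink where the other CTBP2 libraries were labelled as double crosslink with DSG. Another 2 CTBP2 libraries came from MUTZ3 cells with p50MX-3xFLAG-3xNLS-4xPLASS-Zeo, a peptide whose CTBP-binding motif is changed, and 1 from Untreated MOLM1 cells, labelled as chronic myeloid leukemia in blast crisis, that carried a dox-inducible short hairpin against EVI1. The data were peak lists that hold no read counts, so sequencing depth is unknown, and they hold no expression, so the labelled cell types could not be checked against markers. The untreated CTBP2 lists held 62232 and 56526 peaks and the dox CTBP2 lists held 24588 and 23878, and a site could be kept only through these shorter dox lists.

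CTBP2 is a corepressor that does not bind DNA by itself. It is brought to chromatin by transcription factors that carry a short PLDLS-like motif, such as EVI1, the zinc finger factors ZEB1 and ZEB2, KLF3 and HIC1, and it brings histone deacetylases and demethylases with it. ZEB1 and ZEB2 bind E-boxes of the form CAGGTG and CAGGTA. A peptide with repeated PLDLS motifs occupies the cleft of CTBP that these factors share, whichever of them is present.

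The sequences around the summits of 3 of the 247 sites are shown first, the 2 strongest and 1 of the 8 at gene starts, as examples with and without the E-box discussed below. They do not stand for their groups, since LAX1, PTPN1 and UNC13A of the 8 strongest sites had no E-box within 100 bp of the summit, and ADAP2 and BRF2 at gene starts had one. Each is the plus strand of GRCh37 (hg19) from 50 bp before to 50 bp after the summit of the strongest peak in untreated replicate 1, and capitals mark the ZEB-type E-box CAGGTG on either strand. The site in MUC5B lies at chr11:1280347-1280447, that in GPR137B at chr1:236332455-236332555 and that beside PIGV at chr1:27112730-27112830.
MUC5B: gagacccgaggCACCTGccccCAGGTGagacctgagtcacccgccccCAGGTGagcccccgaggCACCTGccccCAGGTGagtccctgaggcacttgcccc
GPR137B: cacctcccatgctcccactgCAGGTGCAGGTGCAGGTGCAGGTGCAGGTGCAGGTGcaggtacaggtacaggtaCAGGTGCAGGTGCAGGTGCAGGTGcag
PIGV: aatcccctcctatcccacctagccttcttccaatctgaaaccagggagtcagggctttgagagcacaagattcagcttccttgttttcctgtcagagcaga
The MUC5B and GPR137B windows are tandem repeats with 5 and 10 copies of the E-box. The PIGV window holds none.

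Sites without EVI1 were kept less often than sites with EVI1. Of the 1774 CTBP2 sites without EVI1, 13.9% were kept (95% Wilson interval 12.4 to 15.6), compared with 61.2% of the 35453 sites with EVI1 (60.7 to 61.7) and 59.0% of all sites. The rule used this contrast, so these shares describe how the sites divided. Across sites with a peak in 0, 1, 2, 3, 4 and 5 of the EVI1 lists, the kept share was 13.9%, 18.0%, 22.3%, 30%, 59.3% and 84.8%. Intervals here and below cover counting error over sites alone, and neighbouring sites and sites of 1 library are not independent replicates.

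The kept share rose with peak strength in both classes. Sites were divided into 5 groups of equal size by their fold enrichment in untreated replicate 1, the deposited ratio of ChIP signal to local background. In the weakest group, 11.4% of 1009 sites without EVI1 and 36.5% of 6436 sites with EVI1 were kept. In the strongest group, all 11 sites without EVI1 were kept (74.1% to 100%) and 93.8% of 7435 with EVI1. Of the 247 kept sites without EVI1, 115 lay in the weakest group and 72 in the next, so most of them were weak.

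Most of the 247 sites were weak and were found in a single dox list. There were 89 sites called in dox replicate 1 only, 89 in dox replicate 2 only and 69 in both, which is 27.9% of the 247. Of the 21707 kept sites with EVI1, 65.5% were called in both dox lists, and of all CTBP2 sites, lost ones included, 38.4%. The median fold enrichment was 5.58 in untreated replicate 1 (range 2.56 to 25.8) and 5.68 in untreated replicate 2 (2.80 to 17.0). It was 4.81 over the 158 sites called in dox replicate 1 (2.74 to 9.89) and 4.98 over the 158 called in dox replicate 2 (2.99 to 13.2). For comparison, the kept sites with EVI1 had a median of 10.2 and 7.98 in the untreated lists. Lost sites without EVI1 were weaker than the 247 sites, at 5.12 and 4.64. The sites were also narrow, with a median width of 421 bp, compared with 381 bp for lost sites without EVI1 and 880 bp for kept sites with EVI1.

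A lack of an EVI1 peak did not mean a great distance from one. The median gap from a kept site without EVI1 to the nearest EVI1 peak was 4710 bp, 46 of the 247 sites (18.6%) lay within 1 kb of one, and 75 (30.4%) lay more than 10 kb away. Lost sites without EVI1 lay nearer, with a median gap of 2450 bp and 32.4% within 1 kb. At the edge of the rule, the 3 members with the weakest dox peak, in STIM1, in ADCY9 nearest to CREBBP and in SRCIN1, each had a fold enrichment of 2.74 in dox replicate 1 and no peak in dox replicate 2. Just outside, kept sites near MTA3, ADGRL1 and CROCC2 touched 1 EVI1 peak by 15, 18 and 18 bp, with fold enrichments of 4.83, 4.07 and 4.52 for those EVI1 peaks. In all, 396 kept sites had a peak in exactly 1 EVI1 list, more than the 247 with none.

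The strongest site lay in an intron of MUC5B, the gene of a gel-forming airway mucin, at chr11:1280089-1280755. Its fold enrichment was 25.8 and 12.7 in the untreated replicates 1 and 2 and 7.66 and 11.1 in the dox replicates. The same site had a fold enrichment of 8.12 in unmodified MUTZ3, 7.39 and 8.49 in the 4xPLASS libraries and 23.7 in MOLM1. It was 1 of 6 sites called in all 8 CTBP2 lists, and the dox values lay below both untreated values.

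GPR137B, which encodes a lysosomal membrane protein, held the second site at chr1:236332315-236332733. The untreated fold enrichments were 23.5 and 14.9 and the dox values were 9.0 and 6.50. None of the 4 other CTBP2 lists had a peak there, although the site was among the strongest in the untreated lists, at rank 1315 of 62232 and 2883 of 56526.

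MYO1E, a class I myosin, was the gene nearest to the third site, which lay in an intron of FAM81A at chr15:59746930-59747382. It gave 13.2 and 13.0 without dox and 7.22 and 8.40 with dox, and 4.59 in 1 of the 4xPLASS libraries. No peak was called there in MOLM1 or in unmodified MUTZ3. The window is a high-copy repeat, in which the median 16-base word occurs 1163 times in the genome.

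CILP2, a cartilage matrix protein gene, lay 12.0 kb from a site at chr19:19660792-19661392. It gave 20.2 and 7.84 untreated and 9.62 and 6.35 with dox, so the treatments overlapped. In the other lists it stood low, with 5.42 in unmodified MUTZ3, 4.34 and 4.28 in 4xPLASS and 4.74 in MOLM1.

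A site in an exon of ATP2B4, a plasma membrane calcium pump gene, was assigned to LAX1, a lymphocyte adaptor whose start is the nearest at 61.4 kb. It gave 7.07 and 14.7 untreated and 6.32 and 13.2 with dox, so both treatments were lower in replicate 1 than in replicate 2 and overlapped. It was called in all 8 lists, with 13.8 in unmodified MUTZ3, where it ranked 524 of 16836, and 17.5 in MOLM1.

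The next 3 were in PHLPP1, a phosphatase gene that acts on AKT, 144 kb upstream of PTPN1, a tyrosine phosphatase gene, and in UNC13A, a gene of synaptic vesicle priming. Their untreated fold enrichments were 9.87 and 6.77, 6.41 and 10.8, and 7.10 and 11.4. With dox they were 6.26 and 7.71, 6.23 and 7.58, and 5.94 and 6.80. The dox values of UNC13A lay below both untreated values, while those of PHLPP1 and PTPN1 overlapped them.

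Among the 69 sites called in both dox lists, fold enrichment was lower in both dox than in both untreated libraries at 27, which is 39.1%, beside 72.5% of all 14297 CTBP2 sites called in both dox lists. It was higher in both dox libraries at 5 of the 69 (7.25%), beside 1.96% of those 14297. These 5 were near CASP4, IRF8, TPRA1, ATP2C1 and MED28. IRF8 encodes a transcription factor of monocytes and dendritic cells, and the site 260 kb from its start gave 4.35 and 6.22 untreated and 7.59 and 8.47 with dox. It was also called in unmodified MUTZ3 at 6.0 and in 4xPLASS replicate 2 at 6.89, and not in MOLM1. The site in ATP2C1, a calcium and manganese pump of the Golgi, gave 3.00 and 4.03 untreated and 4.57 and 4.98 with dox, and 11.1 in MOLM1. Fold enrichment is relative to each library's own background, so a higher value in 2 libraries is not a measured gain in bound CTBP2. The rule also used the peaks of these libraries. The 247 sites were weak untreated, with medians of 5.58 and 5.68 compared with 10.2 and 7.98 for kept sites with EVI1. Whether these shares differ between sites of equal untreated strength was not tested. The shares above therefore describe the chosen sites and do not compare resistance to 4xPLDLS.

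The 4 CTBP2 lists that the rule did not use called kept sites without EVI1 more often than lost sites without EVI1. In MOLM1, 38.9% of the 247 sites had a peak (33.0 to 45.1), compared with 18.4% of the lost sites, a difference of 20.5 percentage points (95% Newcombe interval 14.3 to 26.9). The share was higher on 20 chromosomes and lower on 3. All CTBP2 sites stood at 61.9% and kept sites with EVI1 at 75.7%, a difference of −36.8 points (−42.7 to −30.6). Lost sites with EVI1 stood at 45.5%, so a higher share at kept than at lost sites was not particular to sites without EVI1. With every CTBP2 list of the inducible line cut to the size of the shortest, 39 sites met the rule. Their MOLM1 difference from lost sites without EVI1 was 17.6 points (−1.46 to 35.7).

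The MUTZ3 libraries gave the same order at other levels, apart from lost sites with EVI1. In unmodified MUTZ3, 17.8% of the 247 sites had a peak, compared with 3.67% of lost sites without EVI1, 46.8% of kept sites with EVI1 and 31.2% of all sites. In 4xPLASS replicate 1, the values were 9.31%, 1.24%, 21.8% and 13.7%. In 4xPLASS replicate 2, a list of 31310 peaks where replicate 1 held 6688, they were 27.5%, 8.51%, 71.5% and 52.2%. The 4xPLASS replicates thus differed widely in every class. In each of the 4 lists the 247 sites exceeded lost sites without EVI1 by more than the counting interval. The difference was 14.1 points in unmodified MUTZ3 (9.75 to 19.5), 8.07 in 4xPLASS replicate 1 (4.96 to 12.4) and 19 in replicate 2 (13.6 to 25). Lost sites with EVI1 stood at 9.70%, 2.27% and 27.1% in those lists, below kept sites with EVI1 in each. They also stood below the 247 sites there, by little in 4xPLASS replicate 2, whereas in MOLM1 they stood above them.

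The MOLM1 shares were also taken within groups of peak strength, where the intervals of the differences overlapped, so no trend with strength was detectable. Within the weakest group of sites, 40.9% of kept and 18.9% of lost sites without EVI1 were called in MOLM1, and in the next 43.1% and 17.4%. In the middle group the shares were 30.3% of 33 sites and 17.9% of 145, a difference of 12.4 points (−2.35 to 30.2). In the next they were 18.8% of 16 sites and 20.0% of 35, a difference of −1.25 points (−21.3 to 25), and the strongest group held no lost site without EVI1. With so few strong sites, a difference was not detectable among them. The groups rest on untreated replicate 1 alone. In untreated replicate 2 the medians of kept and lost sites without EVI1 were 5.68 and 4.64, a gap in strength that these groups do not remove. The MOLM1 share also differed with the number of dox lists. The 69 sites called in both dox lists had a MOLM1 peak in 52.2% (40.6 to 63.5) and the 178 called in 1 dox list in 33.7% (27.2 to 40.9).

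By library, MOLM1 peaks were found at 24.7% of the 89 sites called in dox replicate 1 only and at 42.7% of the 89 called in dox replicate 2 only. The same groups had a peak in unmodified MUTZ3 in 6.74% and 23.6%, beside 24.6% of sites in both dox lists. The differences between sites of dox replicate 1 only and dox replicate 2 only were −18 points in MOLM1 (−30.9 to −4.08), −16.9 in unmodified MUTZ3 (−27.3 to −6.38) and −18 in 4xPLASS replicate 2 (−29.8 to −5.51). In 4xPLASS replicate 1 the difference was 2.25 points (−6.17 to 10.8).

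In all, 112 of the 247 sites (45.3%) had no peak in any of the 4 other CTBP2 lists, 72 had a peak in 1, 38 in 2, 17 in 3 and 8 in 4. A MOLM1 peak and none in the other MUTZ3 lists was found at 49 sites, and the reverse at 39.

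The site with the highest rank in MOLM1 lay 34 kb upstream of CDH4, a cadherin gene, at chr20:59792740-59793890. It gave 28.5 in MOLM1, rank 711 of 64569, and 13.9 and 7.31 untreated, 5.21 and 6.35 with dox, 5.51 in unmodified MUTZ3, and 10.7 and 6.38 in 4xPLASS, so it was called in all 8 lists. MUC5B came next. The following 3 stood high in MOLM1, near PDP1, a mitochondrial phosphatase gene, at 21.2, in SMCO1 at 20.8 and near PRKCE, a protein kinase C gene, at 19.5, while the highest of their values in the MUTZ3 lists was 6.58. In the unmodified MUTZ3 list, the sites called in all 8 lists that ranked highest after LAX1 lay near TPRA1 at 11.3 and near PKDCC, a secreted kinase gene, at 9.18. The site near TPRA1 was weak in untreated replicate 1 at 3.24 and 5.91 in replicate 2, and its dox values of 5.97 and 8.13 lay above both.

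The 247 sites were rare at gene starts. Only 8 summits lay within 1 kb of the start of a protein-coding gene, 3.24% (1.65 to 6.26), compared with 4.07% of the 1522 lost sites without EVI1 on the main chromosomes and 28.9% of kept sites with EVI1. The difference from the lost sites was −0.835 points (−2.78 to 2.31), so no difference was detectable, while that from kept sites with EVI1 was −25.7 points (−27.4 to −22.6). Between 1 and 10 kb lay 19.8% of summits, compared with 28.8% of lost sites without EVI1, a difference of −8.94 points (−14.0 to −3.08), and 18.0% of kept sites with EVI1. The share between 10 and 100 kb was 57.5% and that beyond 100 kb was 19.4%, the latter 7.08 points above lost sites without EVI1 (2.30 to 12.7) and 6.16 above kept sites with EVI1 (1.68 to 11.6). The median distance was 28620 bp, 118 summits lay in introns, 117 between genes and 12 in exons.

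The 8 sites at gene starts ranged from weak to moderate, with untreated fold enrichments between 2.84 and 9.48. CASP4, an inflammatory caspase gene, and PIGV, a mannosyltransferase gene of GPI anchor synthesis, were called in both dox lists. CASP4 gave 3.24 and 3.23 untreated and 5.27 and 5.13 with dox, 5.46 in unmodified MUTZ3, 4.16 in 4xPLASS replicate 2 and 12.4 in MOLM1. Its nearest EVI1 peak lay 76700 bp away, so it was the most isolated of the 8. PIGV gave 2.84 and 4.21 untreated and 3.10 and 5.66 with dox, and 6.48 in MOLM1, with an EVI1 peak 153 bp away. The other 6 were at ACP4, IFRD1, ADAP2, BRF2, CCDC149 and CDK5RAP1, each in 1 dox list and each within 545 bp of an EVI1 peak. CCDC149 gave 4.40 and 9.48 untreated and was called in MOLM1 at 18.5 and in unmodified MUTZ3 at 8.92. With sites counted as without EVI1 only where no EVI1 peak lay within 1 kb, 0.498% of the sites were within 1 kb of a start.

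The 247 sites had 244 different nearest genes, which is 1.21% of protein-coding genes. None of the 24 genes of the CTBP complex, 34 recruiters of CTBP, 23 neutrophil and monocyte genes, 14 classic CTBP-repressed genes such as CDH1, or 15 immediate early genes was among them. At that share, lists of this size would often hold no such gene. Of 28 blood transcription factors, 3 (10.7%) were nearest to a site, namely IRF8, CEBPB and MYC, at 260, 75 and 923 kb, and none had a site within 1 kb. How often these genes were nearest to CTBP2 sites of the other classes was not tested, so the 10.7% is not a trait of the 247 sites. The CEBPB site gave 6.04 and 5.12 untreated and was called in dox replicate 2 alone at 4.64. The MYC site gave 7.84 and 8.3 untreated and 5.81 in dox replicate 2, 6.62 in unmodified MUTZ3, 3.56 in 4xPLASS replicate 2 and 6.62 in MOLM1. From the lists of housekeeping families, RPS3A, a ribosomal protein gene, had a site 1.26 kb from its start and EIF3D, a translation initiation factor gene, one at 15.9 kb. No mitochondrial ribosomal, proteasome, splicing, complex I, histone, chromosome 19 zinc finger or ZBTB gene was nearest to a site.

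The ZEB-type E-box was common at sites without EVI1, whether kept or lost. Within 100 bp of the summit, CAGGTG on either strand was found in 115 of 245 windows of the 247 sites, 46.9% (40.8 to 53.2), the other 2 lying in a part of chromosome Y that is masked in the reference. The share was 47.0% in lost sites without EVI1, a difference of −0.101 points (−6.75 to 6.63), 22.8% in kept sites with EVI1, 25.6% in all CTBP2 sites and 15.2% within 100 bp of the starts of protein-coding genes. All 10 windows in the strongest group held it, and 41.7% of those in the weakest. The groups and the summits both came from untreated replicate 1, the list whose peaks without EVI1 held the E-box most often, as given below. Beyond 1 kb from a start, the share fell with the number of EVI1 lists that had a peak, from 47.6% with none to 36.3%, 34.1%, 30.6%, 25.2% and 20.4% with 5. A match of letters does not show that ZEB1 or ZEB2 was bound.

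The share depended on the library. Among all peaks of untreated replicate 1 that met no EVI1 peak, 47.1% held the E-box, and among its peaks that no other list called, 47.7%. Its peaks with EVI1 were at 26.5%. Peaks without EVI1 also stood above those with EVI1 in untreated replicate 2, at 26.5% and 20.7%, and in dox replicate 1, at 30.7% and 20.2%. They did not in dox replicate 2, at 17.4% and 18.1%, in unmodified MUTZ3, at 12.0% and 17.9%, in the 4xPLASS replicates, at 14.7% and 19.7% and at 15.1% and 17.0%, or in MOLM1, at 14.4% and 17.1%. All EVI1 lists used came from MUTZ3, so MOLM1 peaks were classed by the EVI1 peaks of another cell line. EVI1 binding in MOLM1 itself was not examined. When sites were chosen without untreated replicate 1, 1361 sites met the rule and 20.7% of their windows held the E-box, 1.44 points above kept sites with EVI1 (−0.692 to 3.73). Within the 247 sites, those with the E-box were also called less often in MOLM1, 27.8% of 115 compared with 49.2% of 130 without it, a difference of −21.4 points (−32.7 to −9.20), and in unmodified MUTZ3, 11.3% compared with 23.8%. Without high-copy windows, described below, the MOLM1 difference was −13 points (−26.6 to 1.59). What made the libraries differ was not tested.

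Repeats moved with the E-box. A window was counted as high-copy when at least 50% of its 16-base words occurred 100 times or more in the genome. This held for 61 of 245 windows, 24.9% (19.9 to 30.7), and for 28.8% of lost sites without EVI1, 2.84% of kept sites with EVI1 and 5.23% of all sites. Of those 61 windows, 27 (44.3%) held TAATCCCAG, a word common in Alu repeats, and 42 (68.9%) held the E-box. The share of peaks with this Alu word also depended on the library. Among CTBP2 peaks without EVI1, it was 15.9% in untreated replicate 1 and 2.77% to 9.72% in the other inducible lists. In the unmodified, 4xPLASS and MOLM1 lists it was 0.196% to 0.82%. The high-copy share of all peaks in each list was not tested. Without the high-copy windows, 39.7% of 184 windows of the sites held the E-box (32.9 to 46.9), compared with 38.1% of lost sites without EVI1 and 22.2% of kept sites with EVI1. A site 29.2 kb from NPIPB13 was of this kind. Its fold enrichment was 11.3 and 10.8 untreated and 3.38 and 8.90 with dox, and no other CTBP2 list had a peak there. The MOLM1 result was as large without such windows, at 43.5% of kept and 21.5% of lost sites without EVI1, a difference of 22 points (14.6 to 29.6). High-copy sites were called in MOLM1 in 26.2% and in unmodified MUTZ3 in 6.56%.

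More of the words searched set the 247 sites apart from kept sites with EVI1 than from lost sites without EVI1. Of the 29 words searched, the interval of the difference lay above 0 for 1 and below 0 for 1 against lost sites, and above 0 for 2 and below 0 for 5 against kept sites with EVI1. Those 2 were the ZEB-type E-box itself and the general E-box pattern that includes it. Over all windows, no other of the 29 words lay above 0 against kept sites with EVI1. Among 29 intervals at the 95% level, some can miss 0 by counting error alone, so differences of single words from lost sites are descriptions. The word below 0 against lost sites was GGGNGGGG, used for KLF and SP factors, at 6.12% compared with 11.3% (−8.11 to −1.17 points). Without high-copy windows it was at 8.15% compared with 14.6% (−10.3 to −1.19). The ETS word AGGAAGT was found in 17.6% of windows, compared with 10.9% of lost sites without EVI1 (2.13 to 12.2 points higher) and 16.2% of kept sites with EVI1. Without high-copy windows the interval for AGGAAGT included 0 (−0.292 to 11.9), and the CEBP word TTGCNNAA was instead higher, at 11.4% compared with 6.74% (0.505 to 10.2). The GC box GGGCGG of SP factors was found in 5.71% of windows, compared with 9.21% of lost sites without EVI1 (−6.26 to 0.394 points), 29.3% of kept sites with EVI1 and 46.7% of gene starts. Beyond 1 kb from a start it was in 5.91% of windows of the sites and 18.5% of kept sites with EVI1, so the difference from the latter went from −23.6 to −12.6 points. Of the other E-box words, CAGGTA followed CAGGTG, at 17.1% in the 247 sites, 15.5% in lost sites without EVI1 and 7.49% in kept sites with EVI1, while CAGCTG was at 13.9%, 11.6% and 16.7%. Without high-copy windows, CAGGTA was in 21.7% of windows of the 247 sites and 15.5% of lost sites without EVI1, a difference of 6.23 points (0.413 to 13), while in high-copy windows it was in 3.28% and 15.6%, a difference of −12.3 points (−16.7 to −3.79). The words used for EVI1, GACAAGATA and GATAAGATA, were in none of the 245 windows and in 0.107% and 0.042% of kept sites with EVI1. Exact matches of this length were too rare at CTBP2 sites of either kind to tell the classes apart. Median GC content was 51.2%, compared with 53.2% and 58.2%.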

How the data were processed

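The study profiled EVI1 and CTBP2 by ChIP-seq, and 13 peak lists were used. The authors aligned reads to hg19 with Bowtie 1.1.1 and called peaks per library with MACS2 2.1.2 against an input (versions as given in the submitters' processing notes). The MOLM1 CTBP2 input was labelled as single crosslink, while the ChIP was labelled as double crosslink. The effect of this on the MOLM1 list was not tested. The deposited fold enrichment is a ratio to local background at the summit, the −log10 p and −log10 q columns were deposited as the caller wrote them, and the deposited score, meant for display, was not used. The lists hold no read counts, so depth is unknown, and values were compared as ranks or side by side.

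Intervals sharing at least 1 bp were merged and classed as described. Members, gene lists and words were chosen with earlier results of these data known. Sites were named by rank over the 4 inducible CTBP2 lists, rank in MOLM1 and in unmodified MUTZ3, distance to a start and the fixed gene lists. The sites higher with dox and the NPIPB13 site were named after their values were seen. The nearest start was taken from 20176 protein-coding genes of GENCODE 44 mapped to GRCh37. Words were searched on both strands, 29 in all plus 3 E-box words added after seeing the data, and CANNTG contains CAGGTG. Shares have Wilson intervals and differences Newcombe intervals at the 95% level. No p-value was computed, since no count or signal per sample was at hand. The procedure was tested on simulated lists, and overlap counts did not differ from bedtools 2.31.1. Python 3.11.15, numpy 2.4.6, pandas 2.3.3, pysam 0.24.0 and matplotlib 3.10.9 were used. 1 locus near SHOX was counted on both X and Y.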

Additional observations from a re-analysis of the deposited data

How the results depend on the processing

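The peak lists hold no depth, and MOLM1 and unmodified MUTZ3 have 1 library each, so nothing here measures the spread between cultures. Of the values for the sites and their differences under the alternatives, 322 kept their direction and side of 0 or moved by less than their counting interval, and 42 moved, 12 changed sign, 5 passed and 4 lost their side of the interval. The cause of these changes was not tested. Left-out libraries gave 158 to 1361 sites (lowest without either CTBP2 dox replicate, highest without CTBP2 untreated replicate 1; 372 and 401 without EVI1 untreated replicates 1 and 2). Over them, the share with a peak in unmodified MUTZ3 was 13% to 24.1%, in 4xPLASS replicate 2 20.1% to 37%, in MOLM1 30.5% to 50.9%, and with the E-box 20.7% to 49.2%. The E-box difference ranged from −6.81 to 6.19 points from lost sites without EVI1 and from 1.44 to 26.6 from kept sites with EVI1, lowest in both without CTBP2 untreated replicate 1. From lost sites it was 0.933 without CTBP2 untreated replicate 2 and −6.33 without EVI1 untreated replicate 1, where the E-box share was 38.2%, and 1.21 without EVI1 dox replicate 1. The MOLM1 share was 46.8% without CTBP2 dox replicate 1. The difference within 1 kb of a start from lost sites ranged from −2.69 to 0.32 points.

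With sites called in either untreated list there were 1438, with 34.8% in 4xPLASS replicate 2, 49.1% in MOLM1 and 23.7% with the E-box, which was −14.5 points from lost sites and 1.95 from kept sites with EVI1, and −2.13 points from lost sites within 1 kb of a start. With a peak in both dox lists there were 69, with 24.6% in unmodified MUTZ3, 37.7% in 4xPLASS replicate 2, 52.2% in MOLM1 and 39.7% with the E-box. With CTBP2 lists of equal size there were 39, with 35.9% in unmodified MUTZ3, 30.8% and 43.6% in the 4xPLASS replicates and 62.2% with the E-box. There the differences from lost sites were 17.6 points in MOLM1, 0.481 within 1 kb of a start and 12.2 for the E-box, and that from kept sites with EVI1 was 0.511 in 4xPLASS replicate 1.

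The E-box difference from lost sites was 6.72 points at a −log10 q of at least 5, 9.49 (1.96 to 17) at a fold enrichment of at least 5, 0.529 with no EVI1 peak within 1 kb and 1.54 without high-copy windows. Without high-copy windows, 34.8% were in 4xPLASS replicate 2 and 39.7% held the E-box. The share with the E-box was 33.1% within 50 bp and 60.4% within 250 bp of the summit. The share near a start was 6.6% at a fold enrichment of at least 5, 0.498% with no EVI1 peak within 1 kb and 1.21% within 500 bp. The MOLM1 difference from lost sites was 12.4 points in the middle strength group and −1.25 in the next stronger one. The alternatives for high-copy windows, for the E-box under other rules and for other E-box words were chosen after seeing the data.

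With the replicate block, where in both same-numbered pairs the dox peak had to lie on the untreated peak of its number, 68 sites met the rule, with 23.5% in unmodified MUTZ3, 36.8% in 4xPLASS replicate 2, 51.5% in MOLM1 and 40.3% with the E-box. The 2 libraries of a group share only a number with those of the others, so they were not treated as pairs.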
